A study of Rattus norvegicus with 6 samples.

Results

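The 3 arrays of rat hippocampal neurons that received a control shRNA are described here on their own, as a picture of which genes gave bright and which gave dim signals in these cultures. They were taken by their titles from a series of 6 arrays, of which the other 3 carried a knockdown of the nuclear receptor coactivator Ncoa3. The cells came from hippocampi of rats at embryonic day 18 and grew with 10 µM fluorodeoxyuridine, a drug that blocks thymidine synthesis and is used to hold back dividing non-neuronal cells. At 4 days in vitro they received adeno-associated virus with the control shRNA at 1800000 infectious units per ml, and total RNA was taken at 14 days in vitro, labelled with biotin and hybridised to single-colour Affymetrix arrays. All control cultures therefore carry the virus and the drug, and no uninfected culture was analysed here. The labels assign the arrays to separate experiments numbered 1 to 3. There is 1 group, so no test was made and every value is a description. The number of arrays limits the precision.

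Hippocampal neurons at this age in culture have axons, dendrites and working synapses, and most of them are pyramidal cells that release glutamate, with a minority of interneurons that release GABA. Their identity is usually read from cytoskeletal proteins of the neurite, from the vesicle release machinery, and from the transporters and receptors of the transmitter they use. Astrocytes, oligodendrocyte precursors, microglia and cells of vessels and meninges can come along from the embryonic tissue, and each has marker genes of its own.

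Signals were ranked over 18166 genes, each with 1 probe set (the group of probes that reports on a transcript) that carries that gene's symbol alone. Mean log2 signal over the arrays ran from 3.01 to 13.89, with the median gene at 8.04. Genes were also cut by signal into 10 deciles of equal size, of which the brightest began at 11.02 and the dimmest ended at 5.26. A percentile below gives the place of a gene's mean signal among all genes, with 100 for the brightest. Probe sets differ in how well they bind, so a percentile orders signals and not transcript amounts. In the 291 genes with several probe sets, the brightest and the dimmest probe set of the same gene lay a median of 1.12 log2 units apart and up to 8.08 apart. The neuronal and ubiquitous gene Tmsb4x, which encodes an abundant actin-binding peptide, gave 7.59 on each array, percentile 43.3.

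As a yardstick for dim signals, 225 olfactory and vomeronasal receptor genes were used, chemoreceptors of the nose that hippocampal neurons are not known to use. Their 95th percentile was 6.70, which equals percentile 27.0 of all genes, and is called the reference level. By this measure 13261 genes, or 73.0%, gave a mean signal above it. It describes signal and is not a call of detection, and it moved with the choice of receptors, from 6.20 with vomeronasal receptors alone to 7.67 with olfactory receptors alone.

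The arrays were not equally alike. Values of arrays 1 and 2 were identical for 8300 genes (45.7%), while array 3 shared values with either of them for 26.2% and 27.4% of genes. All 3 arrays had the same value for 4090 genes (22.5%). Between the control and the Ncoa3 shRNA arrays, at most 1 gene was identical in any of 9 pairs. An SD of 0 below marks such an identical deposited value and is not a measured spread, and SDs that rest on shared values may be too small. The median absolute difference was 0.01 between arrays 1 and 2, and 0.11 and 0.12 between array 3 and each of them. Spearman's rho over genes, which are not independent replicates, was 0.998 for arrays 1 and 2, and 0.991 and 0.990 with array 3. Of the 100 brightest genes of an array, 82 were shared by all 3, and of the brightest 1817, 1623 were shared. As a check of the labels, Ncoa3 itself read 8.79, 8.88 and 8.37 on the control arrays against 7.43, 7.43 and 7.39 on the Ncoa3 shRNA arrays. Whether the values of both groups were put on 1 scale was not tested, and the difference is not read as a size.

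**Figure D1:**
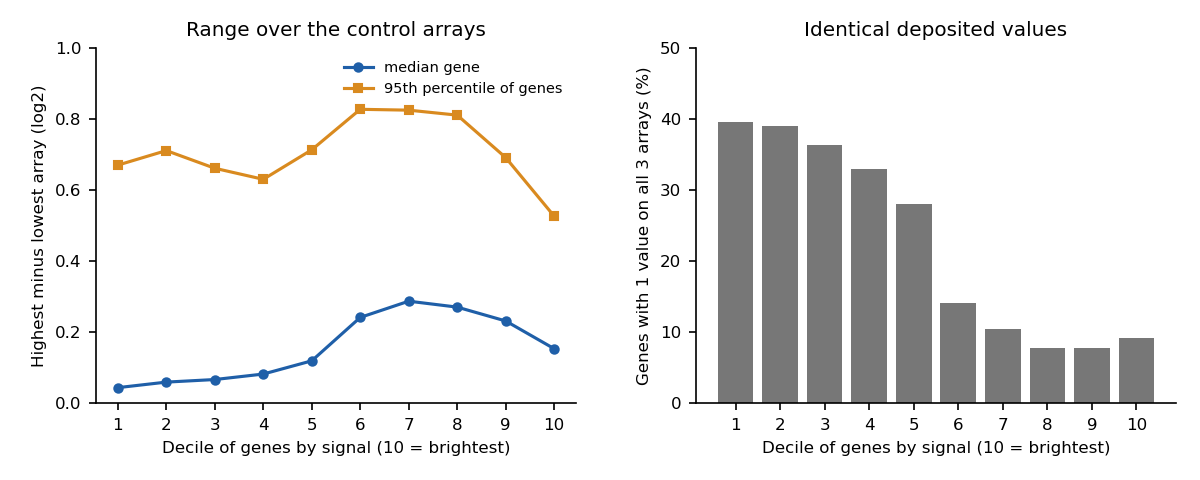
Left, the highest minus the lowest control array in log2 units for the median gene and for the 95th percentile of genes, by decile of genes from dimmest (1) to brightest (10). Right, the percent of genes with 1 identical deposited value on all 3 control arrays, which fell from 39.7% in the dimmest decile to 9.25% in the brightest.

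Promoters of 4 genes with bright signals and of 3 marker genes of other organs are shown as examples of CG content, which is given by signal at the end of the results. Each line holds the 120 bases before the transcription start, from RefSeq on build GRCr8, 5′ to 3′ on the gene's strand, with every CG dinucleotide and every TATAAA in capitals. The genes were picked after their signals were seen. The first 4 gave bright signals: Syp (chrX:17536450-17536569, minus strand), Slc17a7 (chr1:104786085-104786204, plus strand), Gad2 (chr17:89671598-89671717, plus strand) and Tubb3 (chr19:68365567-68365686, plus strand). The last 3 mark liver, sperm and pancreas, and stood at percentiles 24.8, 23.3 and 40.2 of all genes: Alb (chr14:17906980-17907099, minus strand), Prm1 (chr10:5378620-5378739, plus strand) and Ins2 (chr1:207273806-207273925, minus strand).
Syp: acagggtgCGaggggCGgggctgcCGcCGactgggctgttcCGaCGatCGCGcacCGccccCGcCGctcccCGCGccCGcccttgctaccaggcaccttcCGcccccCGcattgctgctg
Slc17a7: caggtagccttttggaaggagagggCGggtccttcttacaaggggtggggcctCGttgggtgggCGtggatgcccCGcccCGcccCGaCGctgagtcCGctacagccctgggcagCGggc
Gad2: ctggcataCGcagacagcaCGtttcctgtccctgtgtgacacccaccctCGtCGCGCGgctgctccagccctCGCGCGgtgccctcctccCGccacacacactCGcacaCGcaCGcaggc
Tubb3: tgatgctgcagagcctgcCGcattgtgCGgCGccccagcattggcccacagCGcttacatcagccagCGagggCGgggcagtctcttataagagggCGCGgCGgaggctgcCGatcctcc
Alb: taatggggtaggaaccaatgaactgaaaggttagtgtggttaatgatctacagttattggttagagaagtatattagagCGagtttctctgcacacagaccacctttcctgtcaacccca
Prm1: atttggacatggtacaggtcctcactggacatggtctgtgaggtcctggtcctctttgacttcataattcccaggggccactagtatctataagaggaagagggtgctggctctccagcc
Ins2: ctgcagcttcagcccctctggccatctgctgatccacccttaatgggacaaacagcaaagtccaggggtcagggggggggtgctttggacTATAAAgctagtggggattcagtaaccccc
The printed stretch held 16 CG dinucleotides in Syp, 9 in Slc17a7, 13 in Gad2 and 10 in Tubb3, against 1 in Alb and 0 in Prm1 and Ins2. A TATAAA stood in Ins2 alone among these 7. Such examples do not stand for all genes: the same stretch held 5 CG dinucleotides in Sst, whose signal was bright, and 4 each in the dimmer Tnp1 and Myh6, markers of germ cells and heart.

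The 25 brightest genes included genes of protein synthesis, energy supply, membrane pumps and the cytoskeleton. The highest mean was that of Rpl41, a small ribosomal protein, at 13.93, 13.91 and 13.82 on arrays 1, 2 and 3. Next stood Rpph1, the RNA of the tRNA-processing enzyme RNase P, at 13.87 ± 0.05 (SD, n = 3). Nnat, a small membrane protein of the endoplasmic reticulum in developing brain, gave 13.69 on each array. Among the 25 were also the mitochondrially encoded respiratory subunits COX3 and COX1, the elongation factor Eef1a1, the chaperone Hspa8 and the actin gene Actb. Neuronal genes stood among them too. Gnao1, the alpha subunit of the G protein Go, read 13.53 on each array, and Dpysl2, a tubulin-binding protein of axon growth, read 13.48, 13.57 and 13.55. The other 15 were Rps2, Tecr, Atp6v0c, Rps29, Tubb5, Txn1, Ywhah, Rtn3, Atp5f1d, Dad1, Tspan7, Atp6v0d1, Rps4x-ps9, Atp1b1 and Tubb2b, of which the last stood at 13.30. Ribosomal protein, tubulin and actin genes have near-identical copies, so their values are uncertain, as is that of the pseudogene Rps4x-ps9.

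Bright signals were not shared by whole families to the same degree. All 6 measured Ywha genes, adaptor proteins that bind phosphorylated partners, lay in the brightest decile of genes, which holds 10.0% of all genes by construction. Of 23 subunits of the vacuolar proton pump, which acidifies synaptic vesicles and lysosomes, 15 lay there, with a median percentile of 97.6. Of 110 nuclear genes of the respiratory chain and ATP synthase 41 lay there, and of 48 proteasome genes 15 did. Genes with a symbol of cytosolic ribosomal proteins were spread widely, with 36 of 154 in the brightest decile, a median percentile of 62.0 and signals from 3.57 to 13.89.

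Families were also formed without a choice by hand, from the letters of a symbol before its first digit. Among 232 families with at least 10 measured genes, those with the highest median percentile were Ndufa (respiratory complex I, 89.9), Ube (ubiquitin-conjugating enzymes, 89.6), Mapk (87.2), Psmd (proteasome, 87.0), Hspa (chaperones, 85.8), Eif (translation initiation, 85.5), Ndufb (85.4), Ap (85.2), Trappc (vesicle tethering, 84.5) and Cnot (deadenylation of mRNA, 84.4). The lowest were Mcpt (mast cell proteases, 2.13), Vom (vomeronasal receptors, 4.11), Prl (prolactin-related hormones, 4.51), Scgb (secretoglobins, 5.63), Mirlet (5.81), Tas (taste receptors, 6.36), Olr and Or (olfactory receptors, 7.50 and 8.03), Ugt (8.78) and Serpinb (9.38). The ribosomal protein families Rpl and Rps had median percentiles of 58.6 and 43.5, although Rpl41 and Rps2 stood among the brightest genes. The 5 dimmest genes were Mir376c, Ubbl1, Or4f14e, Vom1r76 and Vom2r65, all between 3.01 and 3.04.

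**Figure D2:**
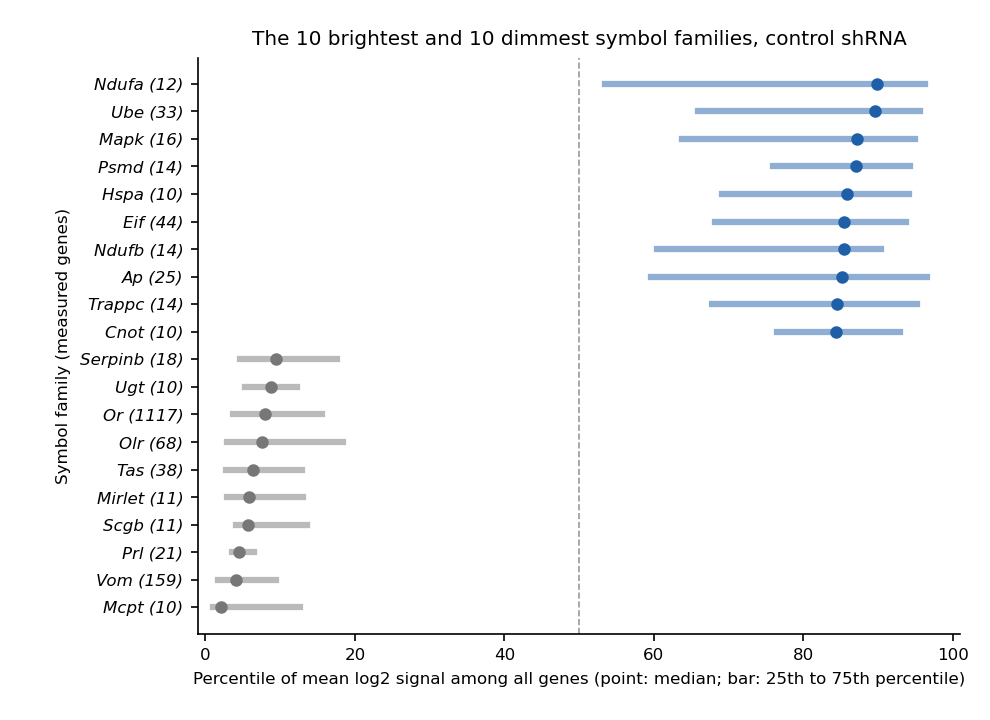
Median percentile of mean log2 signal (points) and the 25th to 75th percentile of members (bars) for the 10 brightest and the 10 dimmest symbol families, with the number of measured genes in parentheses. The bright families have medians from 84.4 to 89.9 and the dim ones from 2.13 to 9.38.

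Genes of neuronal identity were bright as a group. All 32 measured members of the pan-neuronal list were above the reference level, where 73.0% of all genes were, and 28 were in the brightest decile of genes. Their median percentile was 97.8. Uchl1, a ubiquitin hydrolase that is abundant in neurons, read 13.23, 13.23 and 13.34. Stmn2, which regulates microtubules in growing axons, read 13.24 on each array. The marker tubulin Tubb3 read 12.72, 12.74 and 12.72. These genes lay at percentiles 99.1 to 99.9. Each had an identical value on some or all arrays, so the closeness of their arrays is not a measured spread. The dendritic microtubule protein Map2 stood at 12.41 ± 0.04 (SD, n = 3) and the neurofilament light chain Nefl at 12.62 ± 0.06. Rbfox3, the splicing factor detected by the NeuN antibody, stood at 11.95 ± 0.10. Dcx, a microtubule protein of young migrating neurons, was still at 12.06 ± 0.20, percentile 97.2. The dimmest member was Nefh, the heavy neurofilament chain of mature axons, at 7.68, 7.95 and 7.50, percentile 45.2. It was the one member of the list below the median gene.

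Of 28 genes of axonal and dendritic transport and mRNA localisation, 28 were above the reference level and 18 in the brightest decile, with a median percentile of 94.4. Map1b, a microtubule protein of growing axons, and Crmp1, a relative of Dpysl2, both stood at 13.06. The kinesin motors Kif5a and Kif5c, which carry cargo along axons and dendrites, stood at 12.24 ± 0.16 and 11.91 ± 0.06 (SD, n = 3). The translational regulators Fmr1 and Cpeb1 lay lower, at percentiles 68.1 and 42.2. Of the 43 adhesion and guidance genes all were above the reference level and 15 were in the brightest decile, led by the cell adhesion molecules Ncam1 at 12.97 and Cntn1 at 12.71. The guidance cues Ntn1 and Sema3a closed that list at percentiles 52.9 and 44.7.

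**Figure D3:**
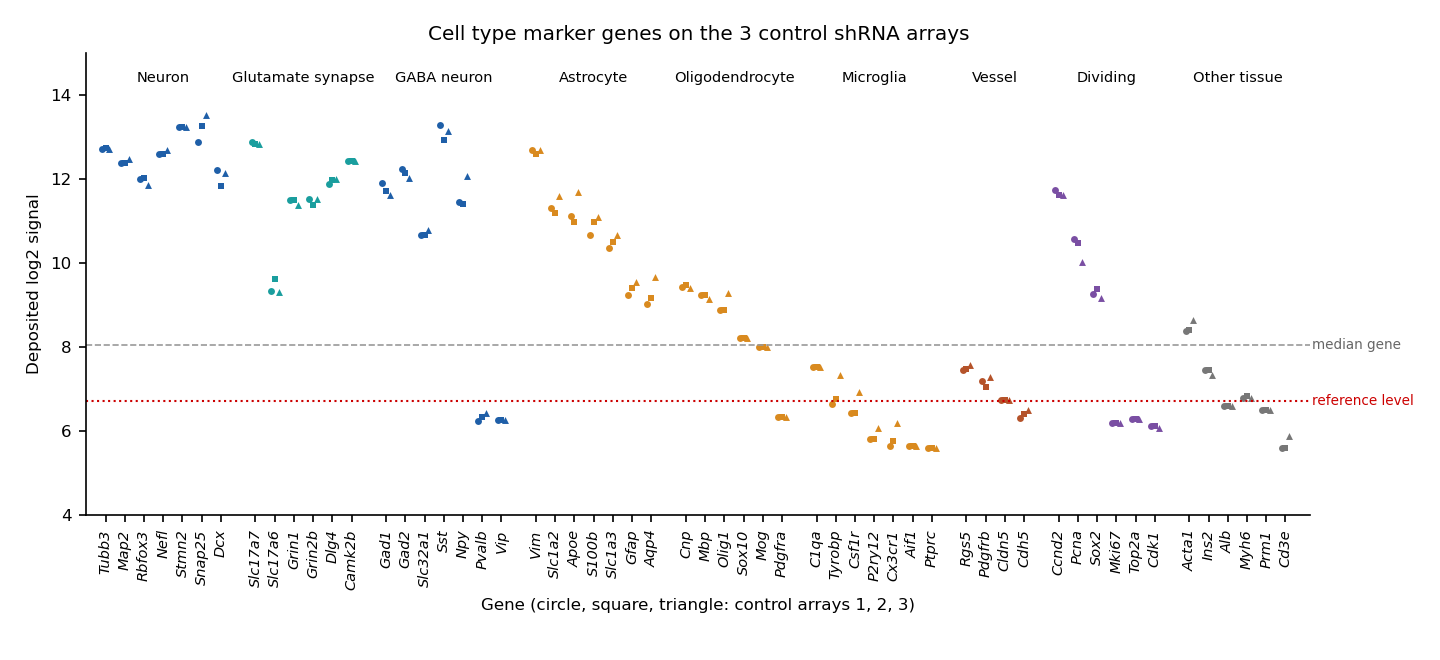
Deposited log2 signal of cell type marker genes on control arrays 1, 2 and 3 (circle, square, triangle), with the median gene at 8.04 (dashed) and the reference level at 6.70 (dotted). The neuronal and synaptic markers shown lie between 9.30 and 13.53 except Pvalb and Vip. The astrocyte markers shown lie above the median gene and the microglial markers shown under it. Genes of the same lists that are not shown include some on the other side. Astrocyte genes Gjb6 and Id3 had means of 6.51 and 6.67, and microglial genes Lyz2 and Sall1 of 8.88 and 8.32.

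The presynaptic release machinery was bright nearly throughout. All 36 measured members were above the reference level and 23 were in the brightest decile, with a median percentile of 94.9. Syp, the vesicle membrane protein synaptophysin, read 13.22, 13.15 and 13.21. Snap25, a SNARE of the plasma membrane, read 12.89, 13.26 and 13.53, so its arrays spread more widely than those of Syp. The calcium sensor Syt1 stood at 12.93 ± 0.06 (SD, n = 3), the vesicle-clustering synapsin Syn1 at 12.91 ± 0.05, and the vesicle SNARE Vamp2 at 12.45 ± 0.05. The active zone scaffold Bsn read 10.73 on each array. The dimmest members were the priming factors Unc13b at 8.58 ± 0.30 and Unc13c, known from cerebellum, at 6.75 ± 0.06, percentile 28.1. Their relative Unc13a was not analysed here, so these values do not describe priming factors as a group.

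Among the transporters that define a transmitter, signals were bright for glutamate and GABA and dim for most others. Slc17a7, the vesicular glutamate transporter of cortical and hippocampal pyramidal cells, read 12.87, 12.84 and 12.84, percentile 99.4. Its relative Slc17a6, which dominates in deep brain regions and early development, read 9.32, 9.62 and 9.30, percentile 69.6. Slc17a8, found in few neurons, read 7.74 on each array, percentile 45.5. Slc32a1, which loads GABA and glycine into vesicles, read 10.67, 10.67 and 10.77, percentile 86.6. The plasma membrane transporters Slc6a11 for GABA and Slc6a9 for glycine, both known from glia as well, stood at percentiles 94.7 and 88.8. For acetylcholine, monoamines and glycinergic neurons, Slc18a3 stood at 8.37 ± 0.29, Slc18a2 at 6.98 ± 0.10, Slc6a5 at 6.80 ± 0.09 and Slc6a2 at 6.37 ± 0.07 (SD, n = 3). Slc6a2, the noradrenaline transporter, was the one of 13 transporters below the reference level.

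Receptors for glutamate differed by subunit. All 13 measured AMPA receptor genes were above the reference level and 7 were in the brightest decile, and these 7 were auxiliary proteins, since the pore subunits Gria3 and Gria4 stood at percentiles 69.9 and 78.4. Gria1 and Gria2 were not analysed here, because no probe set carried their symbol alone. Cnih2, a cornichon protein that slows AMPA receptor closing, read 13.19, 13.19 and 13.22. The related Cnih3 read 9.79, 9.78 and 8.72 and was lowest on array 3. Cacng7 and Cacng3, transmembrane regulators of the same receptors, stood at 12.34 and at 12.11 ± 0.42 (SD, n = 3).

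For NMDA receptors, the obligatory subunit Grin1 read 11.49, 11.49 and 11.37, and Grin2b, the subunit typical of young forebrain neurons, read 11.51, 11.38 and 11.51. Grin2a, which rises as synapses mature in vivo, read 9.09, 8.85 and 9.26. Grin1 and Grin2b lay at percentiles 93.5 and 93.7 and Grin2a at 64.8. Grin3a stood at percentile 71.5, Grin2d at 50.3, and Grin3b and the cerebellar subunit Grin2c at 36.7 and 36.0. All 7 were above the reference level.

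Of 7 kainate receptor genes 4 were in the brightest decile, among them the auxiliary proteins Neto2 and Neto1 and the subunit Grik5, while Grik1 was the lowest at 8.98, 8.51 and 8.09. None of 5 measured metabotropic receptors was in the brightest decile, and Grm5, which couples to calcium release, stood highest at percentile 85.3. All 28 postsynaptic scaffold and signalling genes were above the reference level and 13 in the brightest decile, with a median percentile of 87.6. Camk2b, a calcium-dependent kinase of the postsynaptic density, read 12.43 on each array. Dlg4, its main scaffold, stood at 11.95 ± 0.06 (SD, n = 3), and the calmodulin-binding protein Nrgn read 11.66, 11.98 and 12.14. The dimmest were the scaffold Homer3 and the synaptic adhesion protein Lrrtm4, at percentiles 63.9 and 63.7.

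**Figure D4:**
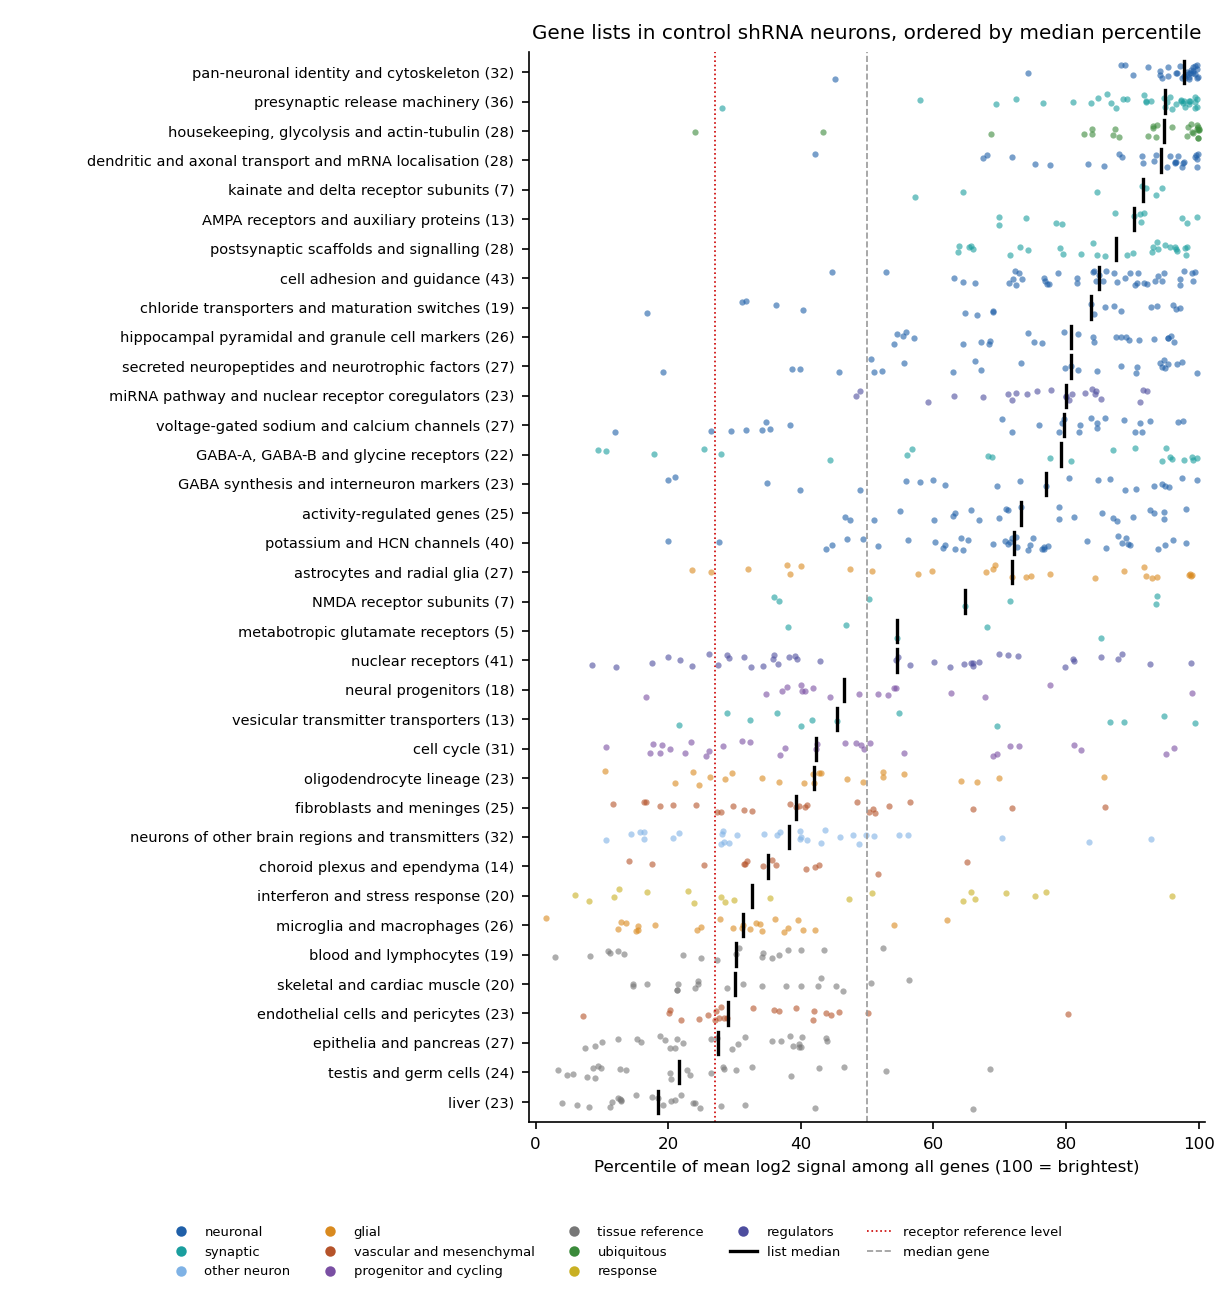
Percentile of mean log2 signal for each measured member (points) and the median (bar) of the gene lists with at least 5 measured members, whose number is in parentheses, with the reference level at 27.0 (dotted) and the median gene (dashed). The pan-neuronal list has the highest median at 97.8 and the liver list the lowest at 18.5.

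Markers of GABA neurons fell into bright and dim subtypes. Gad1 and Gad2, the enzymes that make GABA, read 11.89, 11.71 and 11.62, and 12.24, 12.15 and 12.03. The interneuron peptide Sst read 13.28, 12.91 and 13.13, percentile 99.7, and Npy read 11.45, 11.40 and 12.08. The calcium-binding protein Calb2 stood at 11.58 ± 0.14 and the peptide Cck at 11.07 ± 0.15 (SD, n = 3). In contrast Pvalb, the marker of fast-spiking basket cells, read 6.23, 6.33 and 6.43, and Vip, the peptide of another interneuron class, read 6.25 on each array. Both lay under the reference level on every array, and the other 21 measured genes of the list had means above it. These are bulk cultures, in which fewer cells of a type and less RNA per cell cannot be told apart.

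GABA and glycine receptor genes had a median percentile of 79.2, with 9 of 22 in the brightest decile and 18 above the reference level. Gabra5, a subunit of extrasynaptic receptors rich in hippocampus, read 13.22, 13.12 and 13.04. The metabotropic subunit Gabbr1 stood at 12.73 ± 0.06, and the alpha subunits Gabra3 and Gabra2 of receptors of the young brain at 12.69 ± 0.10 and 12.19 ± 0.22 (SD, n = 3). The inhibitory scaffold Gphn stood at 11.76 ± 0.15. The 4 below the reference level were Gabrr1, Gabrr3, Gabra6 and Gabrp, of which Gabra6 is known from cerebellar granule cells and the rho subunits Gabrr1 and Gabrr3 from retina. Gabrr3 was named after its value was seen.

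Genes that switch as neurons mature showed signals of both ages. The potassium chloride cotransporter Slc12a5, which lowers chloride in mature neurons, read 10.78, 10.79 and 10.72, percentile 87.2. Slc12a2, which raises chloride in young neurons, read 9.45, 9.30 and 9.33, percentile 69.0. The sodium channel Scn2a of young and unmyelinated axons stood at 11.15 on each array and Scn8a of mature axons at 10.63 on each array, while Scn1a, known from fast interneurons, stood at 6.95 ± 0.06 (SD, n = 3), percentile 31.8. The embryonic RNA-binding proteins Lin28a and Lin28b lay at percentiles 31.1 and 16.8, and Lin28b was the one of 19 genes in this list under the reference level.

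Sodium and calcium channel genes had a median percentile of 79.7, with 25 of 27 above the reference level. The sodium channel beta subunit Scn3b read 12.20, 12.38 and 11.92. The calcium channel pore subunits Cacna1a and Cacna1b, which trigger transmitter release, stood at 11.18 ± 0.03 and 10.46 ± 0.07 (SD, n = 3). Both genes under the reference level, Scn10a and Scn7a, are known from sensory neurons and glia of peripheral nerve. Potassium and HCN channel genes had a median percentile of 72.2, and 39 of 40 were above the reference level. Kcnd2, which carries the dendritic A-type current, read 12.33, 12.32 and 12.33. The heart and ear subunits Kcnq1 and Kcne1 closed the list at percentiles 27.7 and 19.9.

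Markers of hippocampal neurons, some of them shared with cortex, had brighter signals as a list than markers of neurons from elsewhere. This contrast rests on how genes were assigned to the lists. All 26 measured markers of hippocampal pyramidal and granule cells were above the reference level and 6 were in the brightest decile, with a median percentile of 80.8. The transcription factors Tbr1 and Lhx2 of cortical and hippocampal excitatory neurons stood at 11.87 ± 0.21 and 11.72 ± 0.07 (SD, n = 3). Neurod6 and Neurod2, of pyramidal cells, stood at percentiles 88.3 and 84.2, and Wfs1, a marker of field CA1, at 84.1. The granule cell factor Prox1 stood at 55.8 and the CA1 factor Pou3f1 at 54.5. Of 32 genes that mark neurons of other regions or transmitters 25 were above the reference level, or 78.1% beside 73.0% of all genes, and the median percentile was 38.3. Dopaminergic Th read 7.83, 8.41 and 7.83, cholinergic Chat 7.22 on each array, and serotonergic Tph2 6.75 on each array. The striatal phosphatase inhibitor Ppp1r1b at percentile 83.5 and the cerebellar synapse organiser Cbln1 at 70.3 lay above most of that list. Neurod1, a transcription factor of granule neurons, was its 1 member in the brightest decile, at 11.34 ± 0.02 (SD, n = 3) and percentile 92.8. Granule cells are also covered by the hippocampal list, so Neurod1 could have been placed there.

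Activity-regulated genes gave signals without any added stimulus named in the labels. All 25 were above the reference level, 6 were in the brightest decile, and the median percentile was 73.2. Egr1, an immediate-early transcription factor, read 12.07, 12.29 and 12.50, and Npas4, induced by calcium entry, read 11.78, 11.52 and 11.54. Both lay at or above percentile 94.8. Fos read 9.63, 9.48 and 9.37, and Arc, which acts in receptor endocytosis, read 8.86, 9.15 and 9.38. Bdnf, a neurotrophin, read 8.95 on each array, percentile 62.9, while its receptor Ntrk2 stood at 12.12 ± 0.03 (SD, n = 3), percentile 97.4. In the list of neuropeptides and trophic factors 10 of 27 were in the brightest decile, and Gdnf, a factor for dopaminergic and motor neurons, was the one under the reference level.

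Astrocyte genes were the one glial list with members in the brightest decile. Of 27 measured, 25 were above the reference level and 8 were in the brightest decile, and the median percentile was 71.9. The intermediate filament Vim, shared with radial glia and mesenchymal cells, read 12.68, 12.59 and 12.69. The matrix protein Sparcl1 and the growth-linked Ndrg2 stood at 12.65 ± 0.01 and 12.54 ± 0.11 (SD, n = 3). The glutamate transporters Slc1a2 and Slc1a3 read 11.31, 11.18 and 11.58, and 10.35, 10.50 and 10.66. Apoe, a lipid carrier, read 11.10, 10.97 and 11.68. Gfap, the filament most used as astrocyte marker, read 9.22, 9.39 and 9.55, percentile 69.3, and the water channel Aqp4 read 9.02, 9.16 and 9.66, percentile 67.9. Array 3 was the highest for each of these transporters, Apoe, Gfap and Aqp4. The gap junction gene Gjb6 and the regulator Id3 lay under the reference level. Other members were dim too, since the lower quartile of the list stood at percentile 49.1, below the median gene. Of the 27, 21 were above the level from olfactory receptors alone.

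Oligodendrocyte genes were dimmer, with 0 in the brightest decile and a median percentile of 42.0. Of 23, 18 were above the reference level, or 78.3% beside 73.0% of all genes. The myelin genes Cnp and Mbp stood at 9.43 ± 0.04 and 9.20 ± 0.05 (SD, n = 3). The lineage factors Olig1 and Sox10 stood at percentiles 64.1 and 52.4, and the precursor receptor Pdgfra read 6.34 on each array, percentile 21.1. The brightest member was Lhfpl3, a membrane protein gene, at 10.70, 10.96 and 10.20, percentile 85.7. With the olfactory receptors alone behind the reference level, 9 of the 23 were above it. For microglia, 16 of 26 genes were above the reference level, or 61.5% beside 73.0% of all genes, 0 were in the brightest decile, and the median percentile was 31.3. That count was 2 with the olfactory receptors alone. Aif1 read 5.63 on each array, Ptprc 5.59 on each array, and the chemokine receptor Cx3cr1 5.64, 5.76 and 6.18. The highest in the list was the lysozyme Lyz2 at percentile 62.0, followed by the transcription factor Sall1 at 54.1.

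Several lists, glial and other, read higher on array 3 than on the other arrays. Array 3 was higher than the mean of arrays 1 and 2 for 19 of 27 astrocyte genes and for 20 of 26 microglial genes, and lower for 3 and 1. Over all genes it was higher for 32.5% and lower for 45.0%. Among genes at the level of most microglial markers, in deciles 2 to 4 from the dimmest, it was higher for 48.4% to 52.9% and lower for 10.7% to 18.7%. In decile 8, where the median astrocyte gene lay, it was higher for 15.9% and lower for 76.4%. The median shift was 0.18 log2 units for the astrocyte list and 0.11 for the microglial list. Similar shifts were seen outside glia, with 19 of 27 genes of epithelia and pancreas higher and a median shift of 0.11, 12 of 19 blood genes with 0.13, and 15 of 25 activity-regulated genes with 0.13. The oligodendrocyte list had 11 of 23 higher and a median shift of 0.00. The part of the numbers of such cells in this shift was not tested.

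Vessel, meningeal and choroid plexus genes were mostly dimmer than the median gene. Endothelial and pericyte genes had a median percentile of 29.0. Of 23, 17 were above the reference level, or 73.9% beside 73.0% of all genes. The junction proteins Cldn5 and Cdh5 stood at 6.73 and at 6.40 ± 0.09 (SD, n = 3). The glucose transporter Slc2a1, which other brain cells also carry, was the exception at 9.79, 10.15 and 10.63. Fibroblast and meningeal genes had 19 of 25 (76%) above the level and a median percentile of 39.3. The proteoglycan Dcn read 10.43, 10.73 and 10.72, and the collagen Col3a1 stood at percentile 32.7. Choroid plexus and ependymal genes had 11 of 14 (78.6%) above the level and a median percentile of 35.0. The transthyretin gene Ttr read 7.51 on each array. None of these 3 lists had a member in the brightest decile.

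Progenitor and cycling genes were split. Of 31 cell cycle genes 21 were above the reference level (67.7% beside 73.0% of all genes). In the brightest decile were 2, Cdk4 at 11.88 ± 0.25 and Ccnd2 at 11.65 ± 0.07 (SD, n = 3), cell cycle regulators that non-dividing neurons can also carry. The replication clamp Pcna read 10.56, 10.48 and 10.02. The mitotic markers Mki67 and Top2a read 6.18 and 6.28 on each array, and Cdk1 read 6.11, 6.11 and 6.06, all under the reference level. Other mitotic genes were above it: Ccnb1, a cyclin, stood at 7.81 ± 0.37 (SD, n = 3), and Ccnb2, Aurka and Plk1, named after their values were seen, stood at percentiles 69.0, 49.5 and 49.1. Tyms, the enzyme that fluorodeoxyuridine blocks, stood at 9.64 ± 0.06 (SD, n = 3), percentile 72.9. Of 18 progenitor genes 17 were above the level (94.4% beside 73.0% of all genes), but their median percentile was 46.5, below the median gene. Sox2 stood at 9.27 ± 0.11 (SD, n = 3), while Nes read 7.28 and Pax6 7.24 on each array. Nes and Pax6 lay at percentiles 37.9 and 37.1, under the level of 7.67 given by olfactory receptors alone.

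Genes of other organs set the lower end. Of 113 measured genes of blood, liver, muscle, epithelia and germ cells 49 were above the reference level (43.4% beside 73.0% of all genes) and 0 were in the brightest decile, with a median percentile of 24.0. The median was 18.5 for liver, 21.6 for germ cells, 27.5 for epithelia and pancreas, 30.1 for muscle and 30.2 for blood. Albumin (Alb) read 6.59 on each array, the sperm protamine Prm1 6.49 on each array, and the T cell receptor chain Cd3e 5.60, 5.60 and 5.88. The count above the level depends on the receptors behind it, since it was 9 with olfactory and 75 with vomeronasal receptors alone. For comparison, the neuronal lists had 265 of 272 above it, the synaptic lists 126 of 131 and the glial lists 59 of 76 (77.6%). With olfactory receptors alone these counts were 250, 115 and 32. Their median percentiles were 83.5, 87.3 and 40.5. The housekeeping list had 27 of 28 above the level, 19 in the brightest decile and a median percentile of 94.8.

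Regulators linked to the coactivator that the series targets spanned middle to high signals. All 23 measured genes of the miRNA pathway and of nuclear receptor coregulators were above the reference level, with 3 in the brightest decile. Ncoa4, Med1 and Crebbp led at percentiles 92.2, 91.6 and 91.2, Ncoa1 and Ncoa2 stood at 85.2 and 80.5, and Ncoa3 stood at 59.2. The argonautes Ago3 and Ago4, which hold miRNAs, closed the list at 48.3 and 48.9. Of 41 nuclear receptors 34 were above the level (82.9% beside 73.0% of all genes), with a median percentile of 54.4. The thyroid hormone receptor Thra read 12.65, 12.65 and 12.49, the mineralocorticoid receptor Nr3c2 stood at percentile 81.1, and the glucocorticoid receptor Nr3c1 read 8.35 on each array, percentile 54.6. Hnf4a stood at percentile 34.3, and Hnf4g and Nr5a2 closed the list at percentiles 12.2 and 8.5.

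Interferon and stress genes had 13 of 20 above the reference level (65% beside 73.0% of all genes) and a median percentile of 32.6. Isg15, an interferon-induced modifier, read 4.68 on each array, and Ifit1 5.06, 4.98 and 4.98, in cultures that all carried a virus vector. Ccng1 and Cdkn1a, which DNA damage induces, stood at 11.82 ± 0.03 and 9.81 ± 0.16 (SD, n = 3). Of the sex-linked genes, Uty of the Y chromosome read 9.62, 9.62 and 9.45 and Ddx3x of the X chromosome 9.88, 9.97 and 9.88.

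Precursor genes of miRNAs were dim. Of 363, 103 (28.4%) were above the reference level beside 73.0% of all genes, and 0 were in the brightest decile, with a median percentile of 13.6. These probe sets report on the precursor gene, and mature miRNAs, which are much shorter, were not analysed here. The let-7 family, known to rise as neurons differentiate, is shown because 10 of the 11 genes with a Mirlet symbol lay under the reference level. For 1 of these 10, Mirlet7f-1, RefSeq listed a miRNA of another name on the opposite strand and not a let-7. Its mature 5p arms share 1 seed, bases 2 to 8, in capitals, in RefSeq's sequences on build GRCr8.
let-7a-5p: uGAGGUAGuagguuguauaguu
let-7b-5p: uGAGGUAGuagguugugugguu
let-7c-5p: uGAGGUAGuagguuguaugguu
let-7d-5p: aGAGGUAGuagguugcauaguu
let-7e-5p: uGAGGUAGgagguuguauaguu
let-7f-5p: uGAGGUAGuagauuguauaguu
let-7i-5p: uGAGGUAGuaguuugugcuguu
Mirlet7a1, the precursor gene on chromosome 17, read 7.48, 7.47 and 7.99, percentile 44.2. Mirlet7b stood at percentile 10.8, Mirlet7d at 5.81, Mirlet7e at 15.3, Mirlet7i at 16.9, and Mirlet7f2 at 0.39. Precursors that end in the same mature arm differed, since Mirlet7a-2 lay at percentile 9.82 and Mirlet7a1 at 44.2. Among the precursors of neuronal miRNAs, Mir124-2 stood at 7.37 ± 0.31, Mir9-2 at 8.73 ± 0.39 and Mir138-2 at 9.05 ± 0.09 (SD, n = 3). Other copies of the same miRNAs were dimmer: Mir124-1 stood at 3.50 ± 0.07 and Mir9-1 at 7.40 ± 0.32 (SD, n = 3), while Mir124-3 read 5.07, Mir138-1 6.92 and Mir9-3 7.57 on each array. Of the 3 Mir124 genes, 2 were thus under the reference level. All 8 were named after their values were seen.

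Promoter composition followed the order of signal. RefSeq windows of 300 bases, 250 before and 50 after the start, matched 14564 genes (80.2%) by gene identifier or symbol. From the dimmest to the brightest decile of genes the median CpG ratio, the observed count of CG dinucleotides over that which the C and G content gives, went from 0.149 to 0.825, beside 0.634 over all matched genes. The median GC content went from 38.7% to 63.0%. The median CpG ratio was already 0.789 in decile 7 from the dimmest. Dim deciles hold many chemoreceptor genes, such as the 1117 Or genes with a median percentile of 8.03. The part of such families in these trends was not tested. Motifs were counted on both strands. TATAAA was in 33.6% of windows in the dimmest decile and 6.27% in the brightest (11.9% of all), and the GC box GGGCGG in 7.32% and 68.1% (48.2% of all). CCAAT stood in 40.7% and 38.5% (37.9% of all). The cyclic AMP response element TGACGTCA, which CREB binds, was in 0.58% and 3.67% (2.42% of all) and the ETS site CCGGAAGT in 0.507% and 8.27% (5.74% of all). No pair of these motifs is nested in the other, and GGGCGG, TGACGTCA and CCGGAAGT hold a CG themselves.

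**Figure D5:**
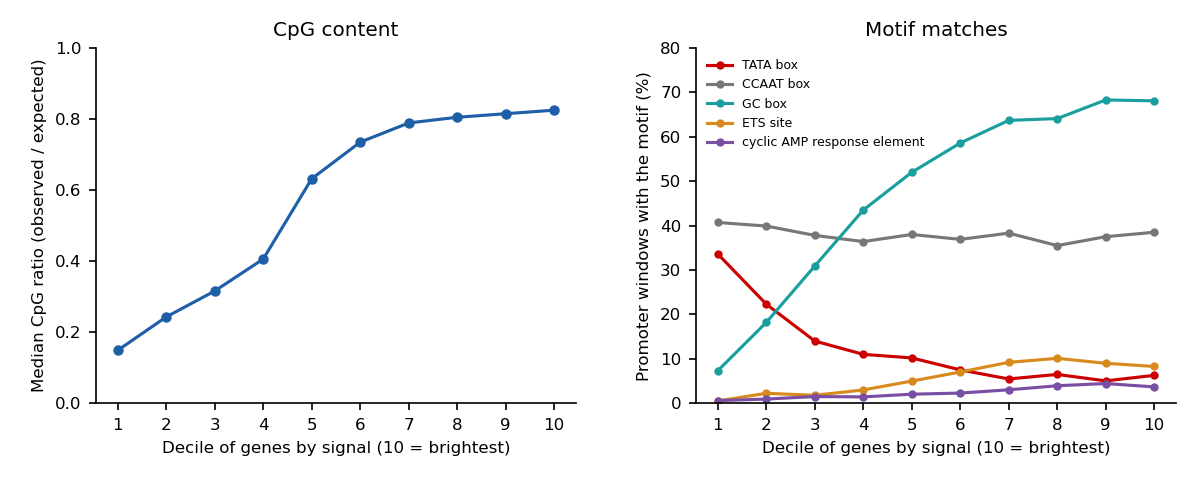
Left, the median CpG ratio of promoter windows by decile of genes from dimmest (1) to brightest (10), going from 0.149 to 0.825. Right, the percent of windows with each of 5 motifs on either strand, where the GC box goes from 7.32% to 68.1% and the TATA box from 33.6% to 6.27% while the CCAAT box stays between 35.5% and 40.7%.

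By list, neuronal and synaptic promoters had higher median CpG ratios than promoters of genes of other organs. The median CpG ratio was 0.743 over 180 neuronal and 0.651 over 105 synaptic windows, 0.883 over 24 housekeeping windows and 0.263 over 92 windows of genes of other organs. TATAAA stood in 3.81% of synaptic, 11.7% of neuronal and 32.6% of other-organ windows. It also stood in 25% of the housekeeping windows, although that list was bright. The share was 20.8% for neurons of other regions, 21.1% for vascular and mesenchymal genes and 2.56% for progenitor and cycling genes. Glial windows had a ratio of 0.402 and TATAAA in 12.3%. A motif match describes letters in the window and is not a binding site.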

How the data were processed

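The authors deposited a table of log2 signals, 1 per probe set and array, and per the submitters' processing notes the software was Affymetrix Expression Console. How probes were summarised and normalized, and on which build, was not given in the sources used here, so values were taken as deposited. Of 36685 probe sets, the platform annotation listed 19086, of which 18511 had 1 symbol and 575 several, and 17599 were unnamed. Each gene was represented by its brightest probe set by mean over the 3 control arrays, giving 18166 genes. Ranks, percentiles, means and SDs were computed in Python 3.11.15 with pandas 2.3.3 and numpy 2.4.6, and the ranking was tested on simulated data. The 37 gene lists held 954 genes, of which 823 were measured, and a gene could stand in more than 1 list. Genes without a probe set of their own symbol alone were not analysed here. The members and lists were chosen with earlier results of these data known.

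Genes are named by rule. It takes the 25 brightest and 5 dimmest genes, the defining, the 3 brightest and the 2 dimmest members of each list, and the 10 genes brighter than the median gene with the largest range over the arrays. It also takes the 10 highest and 10 lowest symbol families of at least 10 genes. Other genes are said to be named after their values were seen. Promoters were matched to RefSeq tables of build GRCr8 by gene identifier, or by symbol where the identifier was not found, with the first listed window of a gene. The miRNAs were matched to such tables by symbol or gene identifier. Alternatives to the probe set rule, the averaging, the scaling, the receptors behind the reference level and the filters are given in the closing section. The Ncoa3 shRNA arrays were used only to check Ncoa3, to count identical values and in the alternative that picks probe sets over all 6 arrays, and no test was made.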

Additional observations from a re-analysis of the deposited data

How the results depend on the processing

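The count of genes above the reference level, 13261 as reported, lay between 9150 (99th percentile of the receptor genes) and 14707 (vomeronasal receptors alone) over 15 alternatives. Receptor genes that the annotation names Or were added after seeing the data and gave 11751. Leaving out an array in turn gave 12898 to 13484, and averaging arrays 1 and 2 as 1 replicate, also added after seeing the data, gave 12921. Counts above the level were the least stable for lists near it. The glial count of 59 became 29 with the 99th percentile and 32 with olfactory receptors alone. The count of 49 for genes of other organs became 6 with the 99th percentile, 9 with olfactory and 75 with vomeronasal receptors alone, 31 with the Or genes added and 32 among genes not identical on all arrays, where fewer genes were ranked. Among those genes the median percentiles of the neuronal, synaptic, glial and other-organ lists were 81.91, 86.59, 39.15 and 22.77, and among genes above the level 78.2, 84.52, 30.65 and 15.59. Their order did not change. Of the 20 families at the ends, 8 remained with at least 20 genes per family, which leaves fewer families. Counts in the brightest decile moved by over 1.5 times in 2 of 333 values for single lists. Of 3589 percentiles of named genes 588 moved by more than their SD over arrays, the furthest by -28.98 points, for Pilrb2l1 with the mean of all probe sets. No paired analysis was possible because no groups were compared and no result comes from a test. Depth in the sense of read counts does not exist for arrays, and signals near the reference level cannot be told from those of receptor genes.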

Other observations

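The genes with the largest range over the control arrays were led by Or8h7b, an olfactory receptor gene, at 11.72, 10.26 and 13.74. Its mean stood at percentile 96.5, in a family with a median percentile of 8.03, and it was the one Or gene in the brightest decile. The next were 4930488N24Rikl at 8.09 ± 1.97 (SD, n = 3) and 10.36 on its highest array, Travl2 at 7.28, 7.22 and 10.31, and Dlg5l14 at 8.48, 7.83 and 10.68. Dlg5l16, Mir761, Pilrb2l1, LOC688340 and LOC100364561 followed. These 9 were all highest on array 3. Genes had to be brighter than the median gene by their mean, and 5 of the 9 met this only through array 3, so their highest array was partly set by that filter. Hnrnpm, which encodes an RNA-binding splicing protein, closed the 10 and was lowest on array 3, at 10.28, 10.85 and 9.06. Arrays 1 and 2 differed by more than 1 log2 unit in 8 genes, and array 3 from them in 194 and 232.

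The 17599 probe sets without a symbol were dimmer as a group than named genes, with a median of 6.31. Of them 7572 were above the reference level and 904 (5.14%) reached the signal of the brightest decile. 1 of them, at 14.05, was brighter than the brightest named gene. What these probe sets report on was not analysed here.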
